A study of Mus musculus with 23 samples.

Results

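The chemokines and chemokine receptors that draw effector T cells and monocytes into inflamed tissue were followed in colon RNA of HFD-fed *Cdx2Apc*f/w mice colonized with BF BSHlow or BF BSHhigh. They are the ligands *Ccl2*, *Ccl5*, *Cxcl9*, *Cxcl10* and *Cxcl16* and the receptors *Ccr2*, *Ccr4*, *Cxcr3* and *Cxcr6*. The 9 genes were taken by symbol from the 55449 genes of the table, and each of the 9 has a row of its own. All mice were male C57BL/6 animals of 6 to 8 weeks at the start, with a Cre recombinase driven by the *Cdx2* promoter, 1 floxed *Apc* allele and a diet with 60% of fat, so the control mice carry the *Apc* deletion and the diet too. BF BSHlow is *B. fragilis* 638R without an added *bsh* gene (BF638R bsh-), and BF BSHhigh is the same strain with the bile salt hydrolase gene of another *B. fragilis* strain (BF638R bsh+). Both were given after a course of antibiotics. Normal colon was taken after 2 weeks of colonization (4 libraries per strain), and colon non-tumor and tumor tissues after 12 weeks (4 libraries each for BF BSHlow, 4 non-tumor and 3 tumor libraries for BF BSHhigh). Uncolonized mice and mice without the *Apc* deletion are not among the samples. The labels do not say whether a tumor and a non-tumor library of the same number came from the same mouse, nor whether each library holds 1 mouse, and the p-values measure only the spread between these libraries.

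Chemokines are small secreted proteins that guide leukocytes by binding receptors with 7 membrane-spanning segments, and a receptor on a leukocyte decides which gradients the cell can follow. CCL2 is the main ligand of CCR2, the receptor with which inflammatory monocytes leave the blood, and CCL5 binds several receptors, CCR1 and CCR3 among them, on T cells, monocytes and eosinophils. CXCL9 and CXCL10 are induced by interferon-gamma and bind CXCR3 on Th1 cells, effector CD8 T cells and NK cells. CXCL16 is made as a membrane-anchored protein, which the protease ADAM10 can shed, and it binds CXCR6 on tissue-resident and effector T cells and on innate lymphocytes. CCR4, with its ligands CCL17 and CCL22, is known from Th2 cells, regulatory T cells and skin-homing T cells. In colon tumors these genes are read as signs of T cell and monocyte entry, but in RNA from whole tissue fewer cells of a type and less RNA per cell cannot be told apart.

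In GRCm38, the build of the table's identifiers, *Ccl2* (ENSMUSG00000035385.5) lies at chr11:82035571-82037453 on the plus strand and *Ccl5* (ENSMUSG00000035042.2) at chr11:83525778-83530518 on the minus strand of the same chromosome. *Cxcl16* (ENSMUSG00000018920.11) is also on chromosome 11, at chr11:70453983-70459984 on the minus strand. *Cxcl9* (ENSMUSG00000029417.9, chr5:92321347-92328079) and *Cxcl10* (ENSMUSG00000034855.13, chr5:92346638-92348889) are neighbours on the minus strand of chromosome 5. Of the receptors, 3 are on chromosome 9, namely *Ccr2* (ENSMUSG00000049103.14, chr9:124101950-124113557, plus strand), *Ccr4* (ENSMUSG00000047898.7, chr9:114490316-114504916, minus strand) and *Cxcr6* (ENSMUSG00000048521.8, chr9:123806475-123811760, plus strand). *Cxcr3* (ENSMUSG00000050232.6) is at chrX:101731535-101734269 on the minus strand. All 9 are annotated as protein-coding. Genes on the opposite strand overlap *Ccl2* (*Gm17268*), *Cxcl10* (*Art3*), *Cxcl16* (*Zmynd15*) and *Cxcr6* (*Fyco1*), and the strand setting of the counting is not given in the sources used here, so reads of these pairs may not be fully told apart. *Ccr2* had a count that was not whole in 3 libraries, as RSEM gives for reads that it divides between gene models.

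The upstream sequences of *Cxcl9* and *Cxcl10* are shown because the 2 genes are neighbours and their levels had the third highest correlation among the pairs of the 9 genes. They are the 250 bases before the transcription start in RefSeq on GRCm38.p6, chr5:92328080-92328329 for *Cxcl9* and chr5:92348890-92349139 for *Cxcl10*, both read on the minus strand. Capitals mark matches to 3 patterns that were searched on both strands, the interferon-stimulated response element (GAAANNGAAA), the gamma-activated site (TTCNNNGAA) and the kappa-B site (GGGANNTTCC).
Cxcl9: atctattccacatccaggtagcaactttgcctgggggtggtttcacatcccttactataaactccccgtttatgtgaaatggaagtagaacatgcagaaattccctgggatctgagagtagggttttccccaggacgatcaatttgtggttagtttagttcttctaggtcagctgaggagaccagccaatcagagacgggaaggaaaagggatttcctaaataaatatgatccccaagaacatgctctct
Cxcl10: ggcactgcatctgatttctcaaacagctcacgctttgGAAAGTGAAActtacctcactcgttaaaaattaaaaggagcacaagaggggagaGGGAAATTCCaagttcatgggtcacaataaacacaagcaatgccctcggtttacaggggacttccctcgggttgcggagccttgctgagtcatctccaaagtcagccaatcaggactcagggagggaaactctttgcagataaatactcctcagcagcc
In *Cxcl10* the interferon-stimulated pattern matched at bases -213 to -204 (GAAAGTGAAA) and the kappa-B pattern at bases -159 to -150 (GGGAAATTCC), with the start itself counted as 0. In the window from 250 bases before to 50 bases after the start, the letters of the 3 patterns were not found for *Cxcl9*, *Ccr2*, *Ccr4*, *Cxcr3* or *Cxcr6*. Among 32851 RefSeq windows of the same length, 3.44% held the interferon-stimulated pattern, 8.30% the gamma-activated pattern and 1.47% the kappa-B pattern. A match of letters is a description and not a binding site.

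The 23 libraries held between 12401388 and 17903008 expected counts. The share of counts on mitochondrially encoded genes was 7.30% to 15.9% at 2 weeks, 4.43% to 6.85% in non-tumor tissues and 2.48% to 3.29% in tumors. The labelled tissues also differed in defining markers. The summed level of 8 genes of mature colon mucosa was 8315 to 23809 CPM in non-tumor tissues, 62.1 to 173 CPM in BF BSHlow tumors and 398 to 3310 CPM in BF BSHhigh tumors. The summed level of 7 smooth muscle genes was 8.27 to 210 CPM at 2 weeks and 1554 to 8755 CPM in non-tumor tissues at 12 weeks, so the 2-week libraries held little muscle RNA. CPM here are counts scaled to the TMM library size. The 3 BF BSHhigh tumors are known as a group only, through equal values in a supplementary table of the study (all of 1996 rows at hand), and are called a, b and c.

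Per length, *Cxcl16* had the highest group mean of the 9 genes in non-tumor and tumor tissues, with 16.2 ± 2.69 CPM per kb (SD, n = 4) in BF BSHlow tumors and 18.5 ± 3.04 CPM per kb (SD, n = 3) in BF BSHhigh tumors. In tumor a of BF BSHhigh, *Cxcl9* was above it, with 22.5 against 19.9 CPM per kb. At 2 weeks *Ccl5* had the highest group mean, with 9.29 ± 5.05 CPM per kb in BF BSHlow and 25.6 ± 12.4 CPM per kb in BF BSHhigh colon (SD, n = 4 each). The receptors were low, and *Ccr4* was between 0.0336 and 0.503 CPM per kb in the group means. The highest receptor value was that of *Cxcr6* in BF BSHhigh tumors, with 5.17 ± 0.639 CPM per kb (SD, n = 3). The plot of log2 CPM by library shows that the genes did not share a common pattern over the 6 groups.

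**Figure D1:**
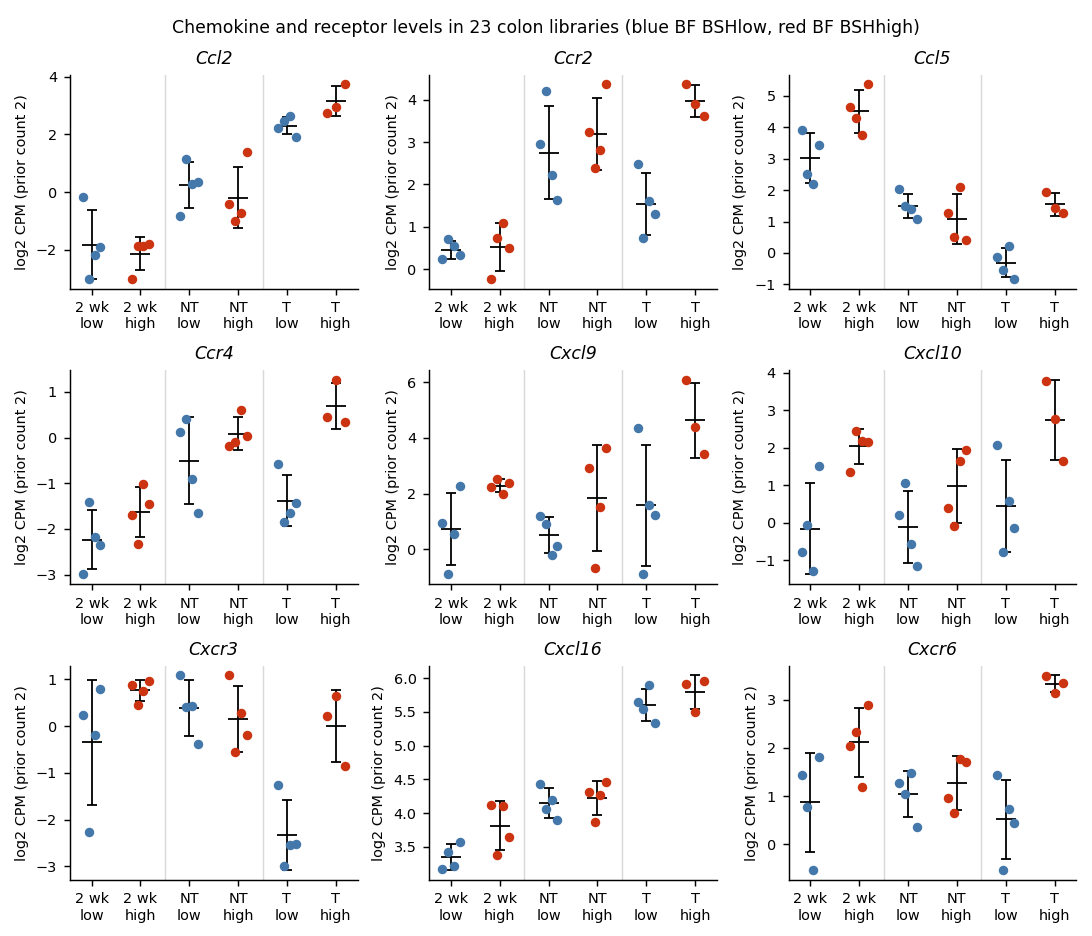
Level of each gene as log2 CPM (edgeR, prior count 2) in the 23 libraries, in normal colon at 2 weeks (2 wk), non-tumor (NT) and tumor (T) tissues at 12 weeks, with BF BSHlow in blue, BF BSHhigh in red, and bars for the mean and SD of each group. *Ccl5* is highest at 2 weeks, *Ccl2* and *Cxcl16* in tumors, and *Cxcr6* is higher in the 3 BF BSHhigh tumors, from 8.71 to 11.2 CPM, than in every other library.

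BF BSHhigh tumors were compared with BF BSHlow tumors to ask which chemokine genes go with bile salt hydrolase activity in tumors. Of the 8 genes that passed the filter on low counts, 0 were called in the quasi-likelihood test of edgeR, where a call is an adjusted p-value under 0.05 with an absolute log2 fold change over 1, while 0.476% of all 15325 genes tested were called. At an unadjusted p-value under 0.05 there were 6 of 8, against 12.7% of all genes. Past both thresholds DESeq2 called 4 of 8, against 3.48% of all genes, and limma-voom 1, against 0.268%. The genes nearest to the threshold were *Cxcr6* (adjusted p = 0.050, just above it), *Ccr2*, *Ccl5* and *Ccr4*, and these are the 4 that DESeq2 called. The log2 fold change was above 0 for 8 of 8 genes, as for 45.5% of all genes tested, with a median of 2.25 against -0.03 over all genes. In 5 of 8 genes the 3 BF BSHhigh tumors lay above the 4 BF BSHlow tumors, as in 7.93% of all genes. *Ccl5*, *Ccr2*, *Ccr4* and *Cxcr6* belong to a list of immune genes that the study selected on these same tumor libraries, so their direction is not independent evidence. The paper names *Ccr2* and *Ccr4* among genes significantly increased in these tumors, at the same thresholds on adjusted p-value and fold change. In edgeR here neither was called. The ninth gene, *Cxcr3*, was too low in BF BSHlow tumors for the filter. *Ccr4* had 3 to 11 counts in those tumors and passed the filter mainly through the BF BSHhigh tumors, with 24 to 51 counts. Its direction, its separation and its DESeq2 call are thus not independent of the filter.

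In non-tumor tissues at 12 weeks 0 of 9 genes were called between the strains by edgeR, DESeq2 or limma-voom, while of all 14933 genes 0% were called by edgeR, 0.395% by DESeq2 and 0% by limma-voom. In edgeR *Cxcl9* alone of the 9 (1 of 9) had an unadjusted p-value under 0.05, as had 9.22% of all genes. The median log2 fold change of the 9 genes was 0.26 against -0.01 over all genes, with 6 of 9 above 0 as for 47.2% of all genes, and the groups overlapped for each of the 9. At 2 weeks 0 of 7 tested genes were called by edgeR, DESeq2 or limma-voom, against 0.00727% of 13752 genes in edgeR, 0.196% in DESeq2 and 0.00727% in limma-voom. Unadjusted p-values under 0.05 were found for 5 of 7, against 6.8% of all genes. These 5 were *Ccl5*, *Cxcl10*, *Cxcl16*, *Cxcr6* and *Cxcl9*, each with a log2 fold change above 0, although the groups overlapped. The median of the 7 genes was 1.15 against -0.0020 over all genes, 7 of 7 were above 0 as were 49.5% of all genes, and *Ccl2* and *Ccr4* were too low to be tested.

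Whether the strain difference itself differed between tumor and non-tumor tissues was tested with an interaction term. By edgeR 0 of 9 genes were called, against 0.978% of 16454 genes, and 5 of 9 had an unadjusted p-value under 0.05, against 9.6%. DESeq2 called 3 of 9, against 2.35%, and limma-voom 0, against 0%. The term was above 0 for 9 of 9 genes, as for 53.9% of all genes. The smallest adjusted p-values of edgeR were 0.0670 for *Cxcr6* (log2 difference 2.49, SE 0.59), 0.0977 for *Ccl5* (2.30, SE 0.59) and 0.159 for *Cxcr3* (3.41, SE 0.98), and these were the 3 genes that DESeq2 called. Without replicate 1 of the BF BSHlow tumors edgeR called *Cxcr6* (2.90, adjusted p = 0.0268) and *Cxcr3* (4.80, adjusted p = 0.0369), and without replicate 3 of the BF BSHhigh non-tumor tissues *Ccl5* (2.79, adjusted p = 0.0424). For *Cxcl9* the term was 0.31 (SE 1.5, adjusted p = 0.988), so a strain difference of another size in tumors than in non-tumor tissues was not detected, with an interval from -2.91 to 3.53. The terms use the same tumor and non-tumor libraries as the comparisons above.

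**Figure D2:**
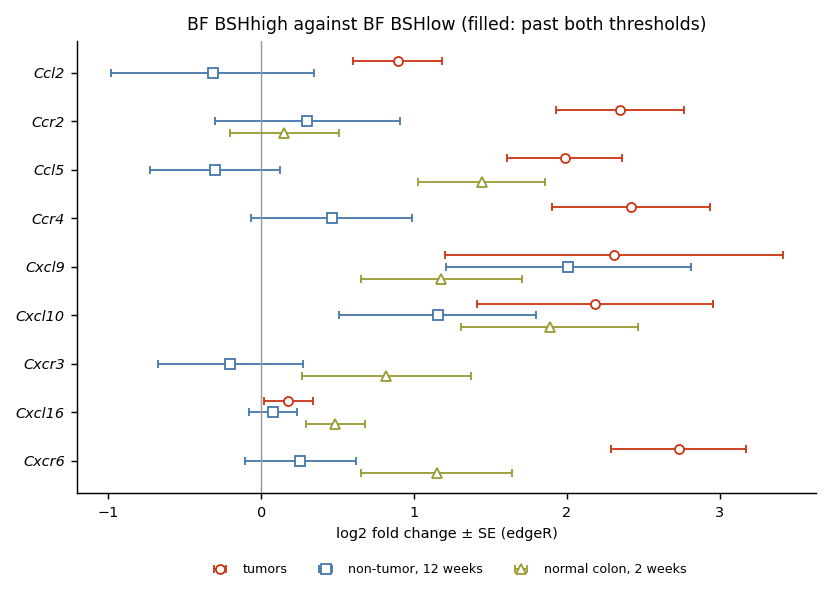
Log2 fold change of BF BSHhigh against BF BSHlow (x axis, with its standard error as bars) of the genes tested in tumors (circles), non-tumor tissues (squares) and normal colon at 2 weeks (triangles), where a filled symbol would mark a gene past both thresholds. No symbol is filled; the 8 values in tumors run from 0.18 for *Cxcl16* to 2.73 for *Cxcr6*, and those in non-tumor tissues from -0.32 for *Ccl2* to 2.01 for *Cxcl9*.

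*Ccl2*, the monocyte attractant, was near the limit of detection at 2 weeks and highest in tumors. Its level at 2 weeks was 0.758, 0, 0.0948 and 0.141 CPM in BF BSHlow and 0, 0.147, 0.149 and 0.160 CPM in BF BSHhigh colon, where 3 counts correspond to 0.250 and 0.273 CPM in the libraries listed at 0. In non-tumor tissues it was 0.445, 2.06, 1.09 and 1.16 CPM in BF BSHlow and 0.625, 0.374, 0.485 and 2.47 CPM in BF BSHhigh mice. In tumors it was 4.52, 5.34, 6.01 and 3.67 CPM in BF BSHlow and 6.57, 7.59 and 13.2 CPM in BF BSHhigh mice. The 2 strains overlapped at 2 weeks and in non-tumor tissues, every tumor library lay above every non-tumor library, and the BF BSHhigh tumors lay above the BF BSHlow tumors. The difference between the strains in tumors was 0.89 on the log2 scale (SE 0.29, adjusted p = 0.241 from edgeR) and was not called. In non-tumor tissues it was -0.32 (SE 0.66, adjusted p = 0.920), and the interaction term was 1.22 (SE 0.77, adjusted p = 0.708).

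*Ccr2*, the receptor of CCL2, had its highest levels in non-tumor tissues and in BF BSHhigh tumors. It was near 1 CPM in the 8 libraries of 2 weeks, from 0.727 to 2.00 CPM. Non-tumor tissues had 7.64, 18.3, 4.57 and 2.97 CPM in BF BSHlow and 9.31, 5.11, 6.91 and 20.5 CPM in BF BSHhigh mice. The tumors had 5.50, 1.54, 2.91 and 2.35 CPM in BF BSHlow and 20.5, 14.9 and 12.2 CPM in BF BSHhigh mice. The non-tumor libraries spread over a wide range in both strains, and the 3 BF BSHhigh tumors lay above the BF BSHlow tumors but within the range of the non-tumor tissues. The log2 fold change between the strains was 2.35 in tumors (SE 0.42, adjusted p = 0.0568 from edgeR), 0.30 in non-tumor tissues (SE 0.60, adjusted p = 0.917) and 0.15 at 2 weeks (SE 0.35, adjusted p = 0.962). Without single tumor libraries the adjusted p-value in tumors was between 0.0536 and 0.193. The interaction term was 2.04 (SE 0.81, adjusted p = 0.396).

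*Ccl5*, which T cells and NK cells release on activation, had its highest values at 2 weeks. There it was 14.9, 5.59, 4.45 and 10.7 CPM in BF BSHlow and 24.7, 19.4, 13.3 and 41.0 CPM in BF BSHhigh colon. Its non-tumor values were 3.93, 2.69, 2.52 and 2.00 CPM in BF BSHlow and 2.31, 1.31, 4.18 and 1.20 CPM in BF BSHhigh mice. Its tumor values were 0.785, 0.564, 1.05 and 0.440 CPM in BF BSHlow and 3.72, 2.55 and 2.29 CPM in BF BSHhigh mice. The BF BSHlow tumors were below all other libraries, while the BF BSHhigh tumors lay in the range of the non-tumor tissues. At 2 weeks 1 BF BSHlow library reached into the BF BSHhigh range, and the log2 fold change was 1.44 (SE 0.42, unadjusted p = 0.00593, adjusted p = 0.611 from edgeR). In tumors it was 1.98 (SE 0.38, adjusted p = 0.0610), and in non-tumor tissues -0.30 (SE 0.43, adjusted p = 0.872). Over the tests and settings tried, the adjusted p-value in tumors was between 7.49e-04 and 0.245.

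*Ccr4*, a receptor of Th2 and regulatory T cells, was close to the limit of detection at 2 weeks, with 0 to 3 counts per library in BF BSHlow and 1 to 5 in BF BSHhigh colon. The non-tumor libraries had 0.964, 1.20, 0.409 and 0.194 CPM in BF BSHlow and 0.750, 0.809, 1.39 and 0.898 CPM in BF BSHhigh mice. Tumor libraries had 0.540, 0.154, 0.191 and 0.244 CPM in BF BSHlow and 1.24, 2.28 and 1.14 CPM in BF BSHhigh mice, from 3 to 51 counts. The 3 BF BSHhigh tumors lay above the BF BSHlow tumors, and the non-tumor groups overlapped. The log2 fold change was 2.42 in tumors (SE 0.52, adjusted p = 0.0846 from edgeR) and 0.46 in non-tumor tissues (SE 0.53, adjusted p = 0.834), with an interaction term of 1.96 (SE 0.77, adjusted p = 0.387).

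*Cxcl9* and *Cxcl10*, the interferon-gamma-induced ligands of CXCR3, varied widely between libraries of the same group. At 2 weeks *Cxcl9* was 1.82, 0.417, 1.33 and 4.71 CPM in BF BSHlow and 4.63, 5.60, 3.79 and 5.13 CPM in BF BSHhigh colon. In non-tumor tissues it was 2.15, 1.78, 0.750 and 0.968 CPM in BF BSHlow and 7.44, 0.498, 2.73 and 12.4 CPM in BF BSHhigh mice. In tumors it was 20.5, 0.410, 2.91 and 2.25 CPM in BF BSHlow and 67.8, 20.7 and 10.5 CPM in BF BSHhigh mice. Replicate 1 of the BF BSHlow tumors reached the BF BSHhigh range, and tumor a of BF BSHhigh stood above the other 2, so that the groups overlapped. In tumors the log2 fold change was 2.31 (SE 1.10, adjusted p = 0.450 from edgeR). It was 4.13 without replicate 1 of the BF BSHlow tumors (adjusted p = 0.109) and 1.22 without tumor a (adjusted p = 0.997). In non-tumor tissues it was 2.01 (SE 0.80, unadjusted p = 0.0333, adjusted p = 0.512), and at 2 weeks 1.18 (SE 0.53, adjusted p = 0.733).

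*Cxcl10* was 0.455, 0.834, 0.284 and 2.74 CPM in BF BSHlow and 2.45, 5.30, 4.46 and 4.33 CPM in BF BSHhigh colon at 2 weeks. Non-tumor tissues had 1.04, 1.95, 0.545 and 0.323 CPM in BF BSHlow and 1.19, 0.809, 3.03 and 3.74 CPM in BF BSHhigh mice. The tumors had 4.12, 0.462, 1.38 and 0.782 CPM in BF BSHlow and 13.8, 6.75 and 3.0 CPM in BF BSHhigh mice. As for *Cxcl9*, replicate 1 was the highest of the BF BSHlow tumors and a the highest of the BF BSHhigh tumors, and replicate 4 of the BF BSHlow colon at 2 weeks stood above the other 3. The log2 fold change was 2.18 in tumors (SE 0.77, unadjusted p = 0.0219, adjusted p = 0.280 from edgeR), 1.15 in non-tumor tissues (SE 0.64, adjusted p = 0.635) and 1.89 at 2 weeks (SE 0.58, unadjusted p = 0.00841, adjusted p = 0.651). Without replicate 4 of the BF BSHlow colon the value at 2 weeks was 2.94 (adjusted p = 0.0432) and was called, while leaving out any of the other 7 libraries gave no call among the chemokine genes. In tumors it was 3.15 without replicate 1 of the BF BSHlow tumors (adjusted p = 0.105) and 1.5 without tumor a (adjusted p = 0.897).

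The 2 ligands moved together over the 23 libraries, with a Pearson correlation of log2 CPM of 0.840, and of 0.734 for deviations from the group means. These points share libraries, depth and groups, and the values are a description. The ratio of *Cxcl9* to *Cxcl10* in CPM was 4.93, 3.07 and 3.49 in the BF BSHhigh tumors and 4.96, 0.889, 2.10 and 2.88 in the BF BSHlow tumors. It was between 0.50 and 6.26 over the 23 libraries, with as few as 3 counts of *Cxcl10* in a library.

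**Figure D3:**
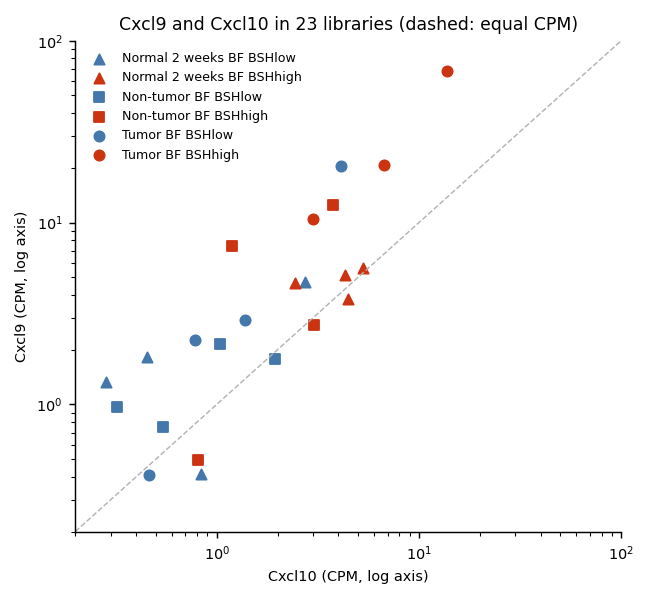
*Cxcl9* (y axis) against *Cxcl10* (x axis) in CPM, not corrected for gene length and both on log axes, with a point for each of the 23 libraries, the tissue by shape, the strain by colour and a dashed line at equal CPM. Tumor a of BF BSHhigh is at the upper right with 67.8 and 13.8 CPM, and replicate 1 of the BF BSHlow tumors lies with the BF BSHhigh tumors at 20.5 and 4.12 CPM.

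*Cxcr3*, their receptor, was close to the limit of detection in BF BSHlow tumors. At 2 weeks it was 1.06, 0.0834, 0.758 and 1.62 CPM in BF BSHlow and 1.73, 1.25, 1.56 and 1.84 CPM in BF BSHhigh colon, and in non-tumor tissues 0.560 to 2.00 CPM over both strains. In BF BSHlow tumors it had 6, 0, 1 and 1 counts (0.295, 0, 0.0477 and 0.0489 CPM), and 3 counts correspond to 0.154 CPM in the library listed at 0. In BF BSHhigh tumors it had 20, 32 and 9 counts (1.03, 1.43 and 0.429 CPM). The BF BSHhigh tumors lay above the BF BSHlow tumors and overlapped with the non-tumor tissues. *Cxcr3* did not pass the filter in tumors. Without that filter its log2 fold change was 3.21 (SE 0.87, adjusted p = 0.131 from edgeR), and with all 23 libraries in 1 fit it was 3.20 (SE 0.78, adjusted p = 0.0168), so that the call rests on the choice of fit. In non-tumor tissues the log2 fold change was -0.20 (SE 0.47, adjusted p = 0.930), and at 2 weeks 0.82 (SE 0.55, adjusted p = 0.849).

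*Cxcl16*, the membrane-bound ligand, was higher in tumors than in non-tumor tissues in both strains. It was 8.87, 10.6, 9.19 and 11.8 CPM in BF BSHlow and 17.3, 10.3, 17.1 and 12.4 CPM in BF BSHhigh colon at 2 weeks. The non-tumor libraries had 21.4, 16.5, 18.3 and 14.8 CPM in BF BSHlow and 19.7, 14.4, 19.2 and 21.9 CPM in BF BSHhigh mice. Tumor libraries had 49.9, 46.4, 59.6 and 40.2 CPM in BF BSHlow and 60.3, 45.3 and 61.9 CPM in BF BSHhigh mice. Each tumor lay above each non-tumor library, and the strains overlapped in every tissue. The log2 fold change between the strains was 0.18 in tumors (SE 0.16, adjusted p = 0.703 from edgeR), with a 95% interval from -0.19 to 0.55, and 0.07 in non-tumor tissues (SE 0.16, adjusted p = 0.920), with an interval from -0.28 to 0.43. At 2 weeks it was 0.49 (SE 0.19, adjusted p = 0.711). Strain differences of over 1 on the log2 scale lay outside the intervals of this gene in both 12-week tissues.

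*Cxcr6*, the receptor of CXCL16, had the largest fitted log2 fold change between the strains in tumors among the 8 genes tested by edgeR, while the difference of mean log2 CPM was larger for *Cxcl9* (3.05) than for *Cxcr6* (2.81). It was 2.58, 1.58, 0.569 and 3.38 CPM in BF BSHlow and 4.0, 4.93, 2.15 and 7.29 CPM in BF BSHhigh colon at 2 weeks. In non-tumor tissues it was 2.30, 1.95, 2.66 and 1.16 CPM in BF BSHlow and 1.81, 1.43, 3.27 and 3.14 CPM in BF BSHhigh mice. In tumors it was 2.60, 0.564, 1.53 and 1.22 CPM in BF BSHlow and 11.2, 8.71 and 10.1 CPM in BF BSHhigh mice. The 3 BF BSHhigh tumors stood above all other 20 libraries. The log2 fold change in tumors was 2.73 (SE 0.44, adjusted p = 0.050 from edgeR, just above the threshold), and over the tests and settings tried the adjusted p-value was between 2.39e-07 and 0.150. It was 0.26 in non-tumor tissues (SE 0.36, adjusted p = 0.873) and 1.15 at 2 weeks (SE 0.49, unadjusted p = 0.0423, adjusted p = 0.725).

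Tumor and non-tumor tissues were compared within each strain to ask which of the genes go with the tumor itself. In BF BSHlow mice 2 of 7 tested genes were higher in tumors, *Ccl2* (log2 fold change 1.99, SE 0.41, adjusted p = 0.00241 from edgeR) and *Cxcl16* (1.45, SE 0.15, adjusted p = 4.3e-05), and *Ccl5* was lower (-1.98, SE 0.36, adjusted p = 0.00122). Of all 15179 genes tested, 33.7% were called, 16.1% higher and 17.6% lower, so that 3 of 7 is near the share over all genes. The groups of these 3 genes did not overlap, as for 30.6% (higher) and 27.7% (lower) of all genes. *Ccr2* was -1.45 (SE 0.60, adjusted p = 0.0613), and it was called without replicate 4 of the non-tumor tissues (-1.72, adjusted p = 0.0273) or replicate 1 of the tumors (-1.91, adjusted p = 0.0318). *Cxcl9* was 2.20 (SE 1.01, adjusted p = 0.0864), and it was called without replicate 2 of the tumors (2.56, adjusted p = 0.0256). *Cxcl10* (0.79, adjusted p = 0.387) and *Cxcr6* (-0.45, adjusted p = 0.425) were not called. *Ccr4* and *Cxcr3* did not pass the filter. Without the filter *Cxcr3* was lower in tumors (-3.58, SE 0.80, adjusted p = 0.00358), and *Ccr4* was -1.26 (SE 0.67, adjusted p = 0.170). Without replicate 4 of the non-tumor tissues *Ccr4* passed the filter and was called (-1.59, adjusted p = 0.0423).

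In BF BSHhigh mice 5 of 9 genes were higher in tumors and 0 lower, against 29.6% of 15653 genes called, 14.6% higher and 15% lower. *Ccl2* was 3.23 on the log2 scale (SE 0.61, adjusted p = 0.00239 from edgeR) and *Cxcl16* 1.56 (SE 0.16, adjusted p = 1.34e-04), as both also rose in BF BSHlow tumors. *Cxcr6* was 2.04 (SE 0.31, adjusted p = 7.99e-04), and its groups did not overlap, like those of *Ccl2* and *Cxcl16* (32.8% of all genes higher and 29.4% lower did not). *Cxcl9* was 2.53 (SE 0.89, adjusted p = 0.0382) and *Cxcl10* 1.83 (SE 0.63, adjusted p = 0.0353), and the groups overlapped for both. Without tumor a they were 1.44 (adjusted p = 0.198) and 1.15 (adjusted p = 0.152), and neither was called. Leaving out tumor b also ended both calls, with 2.78 (adjusted p = 0.0549) for *Cxcl9* and 1.93 (adjusted p = 0.0636) for *Cxcl10*. So did replicate 1 of the non-tumor tissues, with 2.67 (adjusted p = 0.0658) and 1.62 (adjusted p = 0.0811), and replicate 2, with 2.12 (adjusted p = 0.0512) and 1.55 (adjusted p = 0.0696). Replicate 3 ended the call of *Cxcl9* alone, with 2.28 (adjusted p = 0.0840). *Ccl5* (0.32, SE 0.46, adjusted p = 0.573), *Ccr2* (0.60, SE 0.44, adjusted p = 0.271), *Ccr4* (0.68, SE 0.38, adjusted p = 0.156) and *Cxcr3* (-0.20, SE 0.55, adjusted p = 0.775) were not called, except *Ccr2* without replicate 4 of the non-tumor tissues (1.14, adjusted p = 0.0111).

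The marker lists of other cells and tissue layers also differed between tumor and non-tumor tissues, some lower and some higher. Of 7 smooth muscle genes 7 were lower in BF BSHlow and 7 in BF BSHhigh tumors, with summed levels of 128 to 366 CPM in tumors and 1554 to 8755 CPM in non-tumor tissues. Of 6 B cell genes 6 were lower in each strain, with summed levels of 0.359 to 12.3 CPM in tumors and 11.4 to 338 CPM in non-tumor tissues. Of 8 genes of mature mucosa 8 were lower in BF BSHlow and 6 in BF BSHhigh tumors. Endothelial genes were 179 to 216 CPM in sum in tumors and 52.7 to 117 CPM in non-tumor tissues, without overlap, and *Cdh5* and *Vwf* were higher in both strains (2 of 5 in each). Of 6 fibroblast genes 1 was higher and 1 lower in BF BSHlow tumors, and 3 were higher and 1 lower in BF BSHhigh tumors, with *Pdgfra* higher and *Lum* lower in both. Of 11 T cell genes tested 2 were lower in BF BSHlow tumors (*Cd2* and *Cd8a*) and 0 higher. In BF BSHhigh tumors 3 of 11 were higher (*Trac*, *Cd3g* and *Cd3e*) and 0 lower. Of 12 monocyte and macrophage genes 1 was higher and 1 lower in BF BSHlow tumors. In BF BSHhigh tumors 2 were higher and 1 lower, with *Ly6c2* lower in both strains. Of the NK and cytotoxic cell genes 1 of 1 tested was lower in BF BSHlow tumors, and 2 of 4 were higher in BF BSHhigh tumors. Dendritic cell genes were lower for 3 of 6 tested in BF BSHlow tumors, and 0 of 5 were called in BF BSHhigh tumors. The leukocyte gene *Ptprc* was lower in BF BSHlow tumors (-1.24) and not called in BF BSHhigh tumors (-0.77). The part of these cells and layers in the tumor values of the chemokine genes was not tested.

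**Figure D4:**
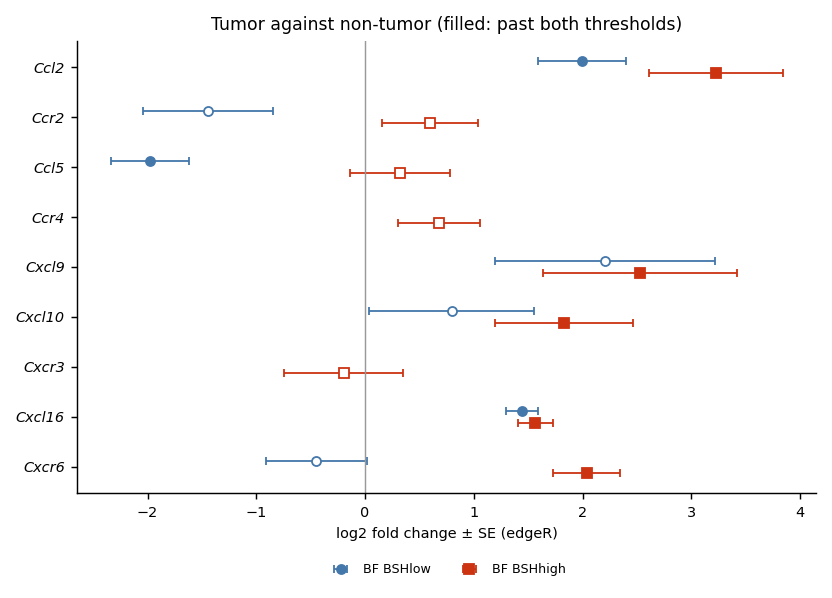
Log2 fold change of tumor against non-tumor tissues (x axis, with its standard error as bars) of the genes tested in BF BSHlow (circles) and BF BSHhigh mice (squares), with filled symbols for genes past both thresholds. *Ccl2* and *Cxcl16* are filled to the right of 0 in both strains, *Ccl5* is filled at -1.98 in BF BSHlow mice, and *Cxcr6* is filled at 2.04 in BF BSHhigh mice.

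Non-tumor tissues of 12 weeks were set beside normal colon of 2 weeks within each strain. In BF BSHlow mice 1 of 6 tested genes was higher at 12 weeks, *Ccr2* (log2 fold change 2.73, SE 0.55, adjusted p = 0.00359 from edgeR), and 1 was lower, *Ccl5* (-1.69, SE 0.40, adjusted p = 0.00784), against 22.7% of 14555 genes called, 15.1% higher and 7.59% lower. In BF BSHhigh mice 2 of 8 were higher, *Ccr2* (2.90, SE 0.48, adjusted p = 9.95e-04) and *Ccr4* (2.12, SE 0.47, adjusted p = 0.00453), and *Ccl5* was lower (-3.41, SE 0.47, adjusted p = 3.56e-04), against 23.3% of 14638 genes, 15.9% higher and 7.34% lower. The 2-week and 12-week libraries did not overlap for these genes, as for 21.5% (higher) and 18.7% (lower) of all genes in BF BSHlow and 25.2% and 23.6% in BF BSHhigh mice. *Cxcl16* in BF BSHlow mice did not overlap either, but its log2 fold change of 0.80 (SE 0.16, adjusted p = 0.00319) stayed under the fold threshold. The other genes tested, *Cxcl9*, *Cxcr3* and *Cxcr6* in both strains and *Cxcl10* and *Cxcl16* in BF BSHhigh mice, were between -0.91 and 0.48 and not called, except *Cxcr6* in BF BSHhigh mice without replicate 3 of the 2-week colon (-1.15, adjusted p = 0.0247). *Ccl2* did not pass the filter in either strain, and *Ccr4* and *Cxcl10* did not pass it in BF BSHlow mice. Without the filter *Ccl2* was 2.18 (adjusted p = 0.0632) in BF BSHlow and 2.96 (adjusted p = 0.0155) in BF BSHhigh mice. In BF BSHlow mice *Ccl2* passed the filter and was called without replicate 1 of the 2-week colon (3.73, adjusted p = 0.00980) or replicate 1 of the non-tumor tissues (2.45, adjusted p = 0.0442), and it was called with all 23 libraries in 1 fit (2.20, adjusted p = 0.0190). Without the filter *Ccr4* was 2.66 (adjusted p = 0.0359) in BF BSHlow mice.

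The time points differ in age, time on the diet and time of colonization, which cannot be told apart. Cell type markers differed as well, where 22.7% (BF BSHlow) and 23.3% (BF BSHhigh) of all genes were called. Of 12 monocyte and macrophage genes, 11 were higher at 12 weeks in BF BSHlow and 12 in BF BSHhigh mice, with summed levels of 69.8 to 171 CPM at 2 weeks and 227 to 858 CPM in non-tumor tissues. The 12 T cell genes were mixed. In BF BSHlow mice *Cd4* (2.46) and *Cd2* (2.20) were higher at 12 weeks and *Cd8a*, a marker of cytotoxic T cells, was lower (-2.30, adjusted p = 0.00870), with a median of -0.14. In BF BSHhigh mice *Cd4* (1.96) was higher and *Cd8a* (-3.06, adjusted p = 8.70e-04), *Cd3g* (-1.84) and *Cd3e* (-1.67) were lower, with a median of -0.77. Of the NK and cytotoxic cell genes 2 of 3 tested were lower in BF BSHlow and 3 of 4 in BF BSHhigh mice. The granzyme gene *Gzma* was at -3.96 (adjusted p = 4.76e-04) and -4.57 (adjusted p = 1.66e-04). Of the B cell genes 6 of 6 and 4 of 6 were higher, of the dendritic cell genes 4 of 4 and 3 of 3, of the fibroblast genes 6 of 6 and 6 of 6, and of the endothelial genes 4 of 5 and 5 of 5, in BF BSHlow and BF BSHhigh mice. The part of these cells in the values of *Ccr2*, *Ccr4* and *Ccl5* was not tested, nor was that of muscle RNA or of the mitochondrial share given above.

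The other genes of the same ligand and receptor systems were a fixed list of 13. In tumors 0 of the 11 that passed the filter were called between the strains by edgeR and 0 by limma-voom, and 2 by DESeq2. Of all genes 0.476%, 0.268% and 3.48% were called by these in turn. In edgeR 7 of the 11 reached an unadjusted p below 0.05, as did 12.7% of all genes. Further CCR2 ligands were *Ccl7* (log2 fold change 1.22, SE 0.30, adjusted p = 0.116), *Ccl8* (1.31, SE 0.51, adjusted p = 0.333) and *Ccl12* (1.55, SE 0.58, adjusted p = 0.309). The CCR4 ligands were *Ccl22* (1.11, SE 0.33, adjusted p = 0.197) and *Ccl17* (0.84, SE 0.41, adjusted p = 0.457). The 3 BF BSHhigh tumors lay above the BF BSHlow tumors for 5 of the 11, *Ccl7*, *Ccl12* and *Ccl22* among them, as in 7.93% of all genes. The CCL5 receptor gene *Ccr1* was 0.03 (SE 0.30, adjusted p = 0.983). The protease gene *Adam10* was -0.13 (SE 0.10, adjusted p = 0.638), and *Dpp4*, whose product trims several chemokines, was 0.40 (SE 0.20, adjusted p = 0.472). The scavenging receptors were *Ackr1* (1.84, SE 0.62, adjusted p = 0.260) and *Ackr2* (-1.22, SE 0.47, adjusted p = 0.321), the latter with BF BSHhigh tumors below the others. The third CXCR3 ligand, *Cxcl11*, and *Ccr3* did not pass the filter, with group means of at most 0.148 and 0.391 CPM in tumors.

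Between tumor and non-tumor tissues, where 33.7% (BF BSHlow) and 29.6% (BF BSHhigh) of all genes were called, some of these genes were called too. In BF BSHlow mice *Ccl7* (1.37) and *Ccr1* (1.31) were among those higher in tumors on the log2 scale, and *Ackr1* (-2.21) and *Dpp4* (-1.98) were lower, with 5 of 11 tested called in all. In BF BSHhigh mice *Ccl7* (2.76), *Ccl17* (2.24), *Ccl12* (1.97) and *Ccl22* (1.17) were among those higher and *Dpp4* (-1.76) was lower, with 6 of 11 called in all. *Ccl7*, a close relative of *Ccl2*, was thus called higher in tumors of both strains, as *Ccl2* was. From 2 to 12 weeks, where 22.7% and 23.3% of all genes were called, *Ccl8*, *Ccl22*, *Ccr1* and *Ackr1* were higher in both strains, *Ackr2* was called in BF BSHlow mice and *Ccl7* in BF BSHhigh mice.

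Genes of the interferon-gamma pathway, of T cells, of NK and cytotoxic cells and of B cells lay to the same side as the chemokine genes in tumors. There were no calls by edgeR among them. Of all genes 12.7% had an unadjusted p-value under 0.05 from edgeR, and 3.48% were called by DESeq2 and 0.268% by limma-voom. Of 12 interferon-gamma pathway genes 10 were tested and 0 called (4 at an unadjusted p-value under 0.05, 2 called by DESeq2 and 0 by limma-voom), with a median log2 fold change of 0.81. The receptor gene *Ifngr1* was 0.77 (SE 0.15, adjusted p = 0.0666) and *Irf1*, a transcription factor gene induced by interferon, 1.37 (SE 0.27, adjusted p = 0.0705). *Ifng* itself was too low to test, with 0 to 0.569 CPM in tumors. Of 12 T cell genes 11 were tested and 0 called (7 at an unadjusted p-value under 0.05, 7 called by DESeq2 and 0 by limma-voom), with a median of 2.12. Their summed level was 12.9 to 29.6 CPM in BF BSHlow tumors and 51.2 to 67.2 CPM in BF BSHhigh tumors, without overlap, and no gene of the list was at 0 throughout a group. Of 12 monocyte and macrophage genes 0 were called (2 at an unadjusted p-value under 0.05, 1 called by DESeq2 and 0 by limma-voom), with a median of 0.43, and *Ly6c2*, a marker of inflammatory monocytes, had 2.34 (SE 0.48, adjusted p = 0.0784). Summed, they were 434 to 1144 CPM in BF BSHlow and 948 to 1219 CPM in BF BSHhigh tumors and overlapped. Of 8 NK and cytotoxic cell genes 3 were tested and 0 called, with a median of 1.60. Their sums of 1.49 to 5.99 CPM in BF BSHlow and 8.54 to 11.3 CPM in BF BSHhigh tumors did not overlap. Of 6 B cell genes 2 were tested and 0 called, with a median of 2.27. Their sums of 0.359 to 3.01 CPM and 2.68 to 12.3 CPM overlapped. With BF BSHlow sums that low, the B cell genes tested passed the filter mainly through the BF BSHhigh tumors, which favoured their direction. Most NK and cytotoxic cell genes did not pass it, and the median there rests on the few that did. Among 21 other chemokine ligands tested 1 was called, *Ccl28* (4.13, SE 0.53, adjusted p = 0.0344), with a median of 0.08, and among 10 other receptors 0 were called, with a median of 0.47. A direction above 0 was not particular to these lists. It was also found for dendritic cell genes (4 of 4 tested, median 0.57), smooth muscle genes (7 of 7, median 0.58), epithelial genes (5 of 6, median 0.14) and *Ptprc* (0.65). Among fibroblast genes 2 of 6 and among endothelial genes 2 of 5 were above 0. The mature mucosa genes, 3 of 8 called higher, also lay above in BF BSHhigh tumors. Tumor a had the highest sum of them (3310 CPM, against 775 in b and 398 in c). It also had the highest *Cxcl9*, *Cxcl10*, *Ccr2*, *Ccl5* and *Cxcr6* (11.2 CPM, against 8.71 in b and 10.1 in c for *Cxcr6*), but not the highest *Ccl2*, *Ccr4*, *Cxcr3* or *Cxcl16*. The part of T cells, of the other leukocytes and of mucosa in the chemokine values was not tested.

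The same lists were read between the strains in the other tissues, where edgeR called 0 genes of each. Of all genes 6.8% had an unadjusted p-value under 0.05 from edgeR at 2 weeks, and 9.22% in non-tumor tissues. DESeq2 called 0.196% of all genes at 2 weeks and 0.395% in non-tumor tissues. Of the interferon-gamma pathway 10 genes were tested at 2 weeks, with 4 at an unadjusted p-value under 0.05, 1 called by DESeq2 and 0 by limma-voom, and summed they were 1018 to 1108 CPM in BF BSHlow and 1261 to 1365 CPM in BF BSHhigh colon. The 12 T cell genes had a median of 0.96 there, with 6 at an unadjusted p-value under 0.05 and 0 called by DESeq2 or limma-voom, and their sums of 20.5 to 50.4 CPM and 38.2 to 85.1 CPM overlapped. Of the related ligands, receptors and proteases 4 were tested at 2 weeks, with 0 at an unadjusted p-value under 0.05 and 0 called by DESeq2 or limma-voom. In non-tumor tissues DESeq2 and limma-voom called 0 genes of the 3 lists as well, and an unadjusted p-value under 0.05 from edgeR was found for 2 of 10 interferon-gamma pathway genes, 0 of 11 T cell genes and 3 of 9 related genes. The T cell median there was 0.03. The part of T cells and of interferon-gamma in the 2-week values of *Ccl5*, *Cxcl9* and *Cxcl10* was not tested.

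To set the genes beside the T cell RNA of the same library, the mean log2 CPM of the 12 T cell genes was subtracted from that of each gene. These values are a description. In tumors the mean of the T cell list was 1.83 higher on the log2 scale in BF BSHhigh than in BF BSHlow mice. *Ccl5* differed by 0.03 after the subtraction, against 1.86 before it, and its groups overlapped. *Cxcr6* still lay above, from 0.35 to 0.86 in BF BSHlow and from 1.29 to 1.83 in BF BSHhigh tumors. *Ccr2* did too, from 1.28 to 1.74 and from 2.06 to 2.24. *Cxcl16* lay below, from 4.64 to 6.43 and from 3.65 to 4.43. Over all 16754 genes treated alike, the BF BSHhigh tumors lay above the others in 0.519% and below in 79.8%, so that a position above was rare and one below common. *Ccl2*, *Ccr4*, *Cxcl9*, *Cxcl10* and *Cxcr3* overlapped, with differences from -0.99 to 1.21. Between tumor and non-tumor tissues the mean of the list differed by -0.99 in BF BSHlow and by 0.75 in BF BSHhigh mice. After the subtraction *Ccl2* (3.05), *Cxcl16* (2.44) and *Cxcl10* (1.55) lay above in BF BSHlow tumors, as did 16.6% of all genes, and *Cxcr3* (-1.73) lay below, as did 5.5%. In BF BSHhigh tumors *Ccl2* (2.58), *Cxcr6* (1.32) and *Cxcl16* (0.82) lay above, as did 5.31% of all genes, while 21.1% lay below.

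**Figure D5:**
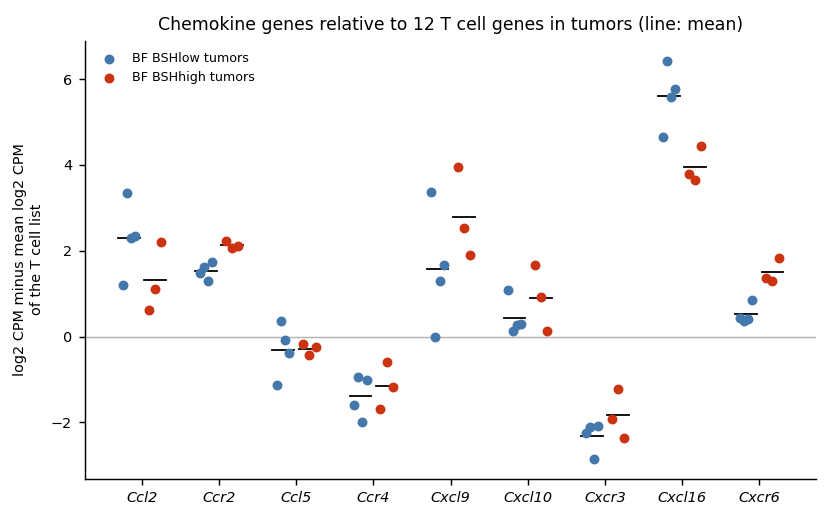
Log2 CPM of each gene minus the mean log2 CPM of 12 T cell genes in the same library (y axis), for the 4 BF BSHlow tumors (blue) and the 3 BF BSHhigh tumors (red), with a line at the mean of each group. The red points of *Ccr2* and *Cxcr6* lie above the blue ones, those of *Cxcl16* below, and those of *Ccl5* among them.

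The 9 genes were also set beside 14399 genes with a mean of at least 1 CPM by the Pearson correlation of log2 CPM over the 23 libraries, which share tissue, strain and depth. *Ccl5* was most like *Cd8a* (0.949, and 0.852 for deviations from the group means), a gene of cytotoxic T cells. The next genes, *Tcrg-C4* (0.93 and 0.56) and *Guca2b* (0.93 and 0.55), were nearly as like over the libraries but less so within groups. *Cxcl9* was most like *Tgtp2* (0.956 and 0.974), *Iigp1* (0.941 and 0.918) and *Gbp4* (0.902 and 0.846), genes of interferon-inducible GTPases, and *Cxcl10* was most like *Iigp1* (0.863 and 0.735). *Cxcr6* was most like *Cd6* (0.863 and 0.894), a T cell surface gene. For *Ccr4* the nearest gene was *Ccr2* (0.897 and 0.595), and for *Ccr2* it was the complement gene *C3* (0.911 and 0.691). *Cxcr3* was nearest to *Samhd1* (0.892 and 0.700), *Ccl2* to *Hey1* (0.950 and 0.671) and *Cxcl16* to *Khdc1a* (0.966 and 0.531). For *Ccl2* and *Cxcl16*, whose correlation with each other was 0.866, that of the deviations was -0.06, so the likeness lay between the groups and not within them.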

How the data were processed

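RNA-seq libraries of 23 colon samples were analysed. The table deposited by the authors holds gene-level expected counts from RSEM, not normalized (reads trimmed with Cutadapt; STAR alignment, mm10), of which 4.24% are not whole. The labels give a total RNA preparation and the methods an mRNA preparation. Gene identifiers matched GENCODE M21. Of the table, 1 row without a gene and *Fgf6*, with text in a cell, were left out. Replicates differed beyond counting noise in each of 33 pairs (chi-square per degree of freedom 16.6 to 126).

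Rounded counts entered the edgeR 4.0.16 quasi-likelihood test under R 4.3.3 (TMM, filterByExpr, Benjamini-Hochberg over all genes of a fit), with only the groups compared in each fit. Alternatives were DESeq2 1.42.0, limma-voom (limma 3.58.1), RLE and upper-quartile scaling, no filter, all libraries in 1 fit, the replicate number as a block, and fits that lack 1 library at a time. Standard errors of log2 fold changes were taken as their size over the square root of F. The test was checked on simulated counts. Figures were drawn in Python 3.11.15 with matplotlib 3.10.9. The genes named are the 9 chemokine genes, 13 related genes and, from each further list, those among the 3 with the smallest p-value; some items are not reported here. The members and lists were chosen with earlier results of these data known. Where replicate numbers are shared, same-numbered libraries correlated between -0.173 and 0.260 in their deviations from the group means. Between non-tumor tissues and tumors of BF BSHlow mice the values were 0.158, -0.0835, 0.0176 and 0.106 for replicates 1 to 4. The own number gave the highest value for replicates 1 and 4 but not for 2 and 3, which does not decide whether these libraries are paired. The numbers were not taken to pair samples.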

Additional observations from a re-analysis of the deposited data

Results flagged for a closer look

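A single library lay far from the others of its group, past Dixon's 95% limit, in 4 of 45 groups of 4 libraries. Chance gives about 1 in 20 for independent normal values, a rate that need not hold for CPM from few counts. *Cxcl9* in replicate 1 of the BF BSHlow tumors was 20.5 CPM, against at most 2.91 in the other 3. *Cxcr3* in the same library was 0.295 CPM, from 6 counts. *Ccl2* in replicate 4 of the BF BSHhigh non-tumor tissues was 2.47 CPM, against at most 0.625 in the other 3, and in replicate 1 of the BF BSHhigh normal colon at 2 weeks it was 0 CPM, against 2 counts in each of the other 3.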

How the results depend on the processing

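In tumors, the 0 genes called between the strains became 1 with RLE scaling, 1 with limma-voom, 3 without the filter and 4 with DESeq2. They became 5 with all 23 libraries in 1 fit, and 0 to 0 when a library was left out. Of all genes 0.476% were called in the main fit, 0.268% with limma-voom and 3.48% with DESeq2. The shares over all genes with the other settings are not given here, so those counts cannot be set beside them. In non-tumor tissues leaving out a library gave 0 to 0, and at 2 weeks 0 to 1. The interaction term gave 3 with DESeq2, against 2.35% of all genes, and 0 to 2 with a library left out. Tumor against non-tumor gave 5 with DESeq2, 6 with all libraries and 3 to 6 with a library left out in BF BSHlow mice. In BF BSHhigh mice it gave 3 with limma-voom and 3 to 6 with a library left out. The main fits called 33.7% of all genes in BF BSHlow and 29.6% in BF BSHhigh mice. From 2 to 12 weeks the comparison gave 4 with all libraries in BF BSHlow mice. With a library left out it gave 2 to 3 in BF BSHlow and 3 to 4 in BF BSHhigh mice. The main fits called 22.7% and 23.3% of all genes there. The replicate block changed no call, with 0 genes in non-tumor tissues, 0 at 2 weeks, 3 for tumors of BF BSHlow mice, and 2 and 3 from 2 to 12 weeks; the BF BSHhigh tumor columns carry no numbers.

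Signs turned for the following values, which were not called in the report. With a library left out, the range was -1.27 to 0.095 for *Ccl2*, -0.25 to 1.04 for *Ccr2*, -0.65 to 0.11 for *Cxcr3* and -0.0031 to 0.19 for *Cxcl16* in non-tumor tissues, -0.076 to 0.35 for *Ccr2* at 2 weeks, -0.17 to 1.40 for *Cxcl10* in BF BSHlow and -0.59 to 0.25 for *Cxcr3* in BF BSHhigh tumors against non-tumor tissues, and -0.74 to 2.12 for the interaction term of *Cxcl9*. From 2 to 12 weeks it was -0.92 to 0.23 for *Cxcl9* and -0.35 to 0.31 for *Cxcr6* in BF BSHlow mice, where *Cxcr6* was 0.0195 with upper-quartile scaling, 0.0854 with limma-voom and 0.0913 with the block, and -0.43 to 0.63 for *Cxcl9* in BF BSHhigh mice, where it was -0.54 with limma-voom and -0.24 with the block. The causes were not tested. *Ccr4* and *Cxcr3* rest on few counts.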
